A study of Homo sapiens with 8 samples.

Results

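The chaperones described here were 10 genes of the heat shock protein families: HSPA8, HSPA1A, HSPA1B, HSPA5, HSPH1, HSP90AB1, HSP90AA1, DNAJB1, HSPD1 and HSPE1. They were found by gene symbol and followed by Ensembl identifier, and each symbol had a single identifier. All 10 were among the 16608 genes counted in every library, and all 10 passed the filter on low counts that left 16320 genes for testing. Their choice used no measured value of these libraries, but they were picked with earlier results of the same data known.

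Total RNA was sequenced from SupB15, an established cell line of Philadelphia chromosome-positive precursor B-cell acute lymphoblastic leukemia, in 8 libraries, with 2 independent samples per treatment. The group 1035+Doxo received 2 µM of 1035 over 36 h and next 0.1 µM of doxorubicin over 10 h. The group 1035 received only the 2 µM of 1035, over 46 h, Doxo only the 0.1 µM of doxorubicin, over 10 h, and DMSO the solvent over 46 h. The study's title names a histone deacetylase inhibitor, and 1035 is the compound given besides doxorubicin, a DNA-damaging topoisomerase II poison. The sources used here do not say if 1035 was washed out of the combination before doxorubicin, and the exposure times of Doxo and DMSO differed. The labels give 36 h of 1035 in the combination against 46 h in the group 1035. An effect of doxorubicin on top of 1035 cannot be told apart from this difference. All groups were the same cell line, so the results describe 1 leukemia line in culture. With bulk RNA, fewer cells expressing a gene and less RNA of it per cell cannot be told apart.

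Chaperones bind unfolded protein and help it fold. HSP70 proteins (HSPA8, HSPA1A, HSPA1B and, in the endoplasmic reticulum, HSPA5) cycle on and off short hydrophobic stretches under the control of J-domain proteins such as DNAJB1, which start ATP hydrolysis, and of nucleotide exchange factors such as HSPH1. HSP90 proteins (HSP90AB1, the constitutive form, and HSP90AA1, the more inducible one) take over client proteins, many of them kinases, and HSPD1 with its lid HSPE1 forms the folding chamber of mitochondria. Heat shock factor 1 (HSF1) activates many of these genes by binding heat shock elements, repeats of the unit NGAAN in alternating orientation, whereas HSPA5 is known as a target of the unfolded protein response through the ER stress response element. Histone deacetylases remove acetyl groups from histones and from other proteins.

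The promoters are shown to describe the motifs near the members' starts. Whether these motifs relate to the direction of change was not tested. RefSeq promoter windows (GRCh38.p14, 250 bases before to 50 bases after each start) matched all 10 genes, in 16 windows. The heat shock element was searched on both strands as 2 units (GAANNTTC or TTCNNGAA) and as 3 units (the 2-unit form extended by one more unit in the opposite orientation, so that every 3-unit match contains a 2-unit one). The 3-unit form was present in windows of 4 of the 10 genes (HSP90AA1, HSP90AB1, HSPA8 and HSPD1), against 0.608% of all 27305 genes in the promoter table. The 2-unit form was present in 7 of the 10, which added HSPA1A, HSPA1B and DNAJB1, against 16.2% of all genes. The ER stress response element (a CCAAT box and a CCACG box a fixed distance apart, on either strand) was present in HSPA5 alone among the 10, against 0.0916% of all genes. A match is a description of these letters and not evidence of a bound site. The elements were searched because they are known for such genes, so these shares are no test of enrichment. Only exact matches were counted, so a missing match does not show that an element is absent. The sequences give the 150 bases before the start, 5′ to 3′, with every 2-unit heat shock element in capitals, except that HSPA5 has its ER stress response element in capitals. They are from RefSeq, in GRCh38.p14, whereas the counts were made on hg19.
HSPA8, chr11:123062137-123062286, minus strand: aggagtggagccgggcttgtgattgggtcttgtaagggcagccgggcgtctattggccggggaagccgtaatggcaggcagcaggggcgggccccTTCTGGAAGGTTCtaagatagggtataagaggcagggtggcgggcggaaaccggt
HSPA1A, chr6:31815393-31815542, plus strand: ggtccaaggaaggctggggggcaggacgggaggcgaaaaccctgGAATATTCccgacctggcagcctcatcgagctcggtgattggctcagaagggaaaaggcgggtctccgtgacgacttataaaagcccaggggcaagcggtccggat
HSPA1B, chr6:31827588-31827737, plus strand: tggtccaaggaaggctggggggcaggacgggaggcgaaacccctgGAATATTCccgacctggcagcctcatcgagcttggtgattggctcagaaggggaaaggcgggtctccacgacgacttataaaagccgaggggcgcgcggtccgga
HSPA5, chr9:125241344-125241493, minus strand: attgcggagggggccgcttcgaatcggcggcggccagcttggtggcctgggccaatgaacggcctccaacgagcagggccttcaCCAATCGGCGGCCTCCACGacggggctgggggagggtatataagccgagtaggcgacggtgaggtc
HSP90AA1, chr14:102087045-102087194, minus strand: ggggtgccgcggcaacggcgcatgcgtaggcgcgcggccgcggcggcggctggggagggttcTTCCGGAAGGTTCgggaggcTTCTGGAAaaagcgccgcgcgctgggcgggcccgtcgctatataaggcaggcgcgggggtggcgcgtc
DNAJB1, chr19:14518398-14518547, minus strand: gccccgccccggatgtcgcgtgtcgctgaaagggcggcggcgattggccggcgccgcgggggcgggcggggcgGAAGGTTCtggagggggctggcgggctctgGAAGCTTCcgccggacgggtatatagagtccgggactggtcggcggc
HSPA8 and HSP90AA1 each have capitals that run across overlapping pairs, which makes the 3-unit form. HSPA1A and HSPA1B have the same single exact 2-unit match, GAATATTC, and nearly the same letters around it. HSPD1 and HSPE1 start in opposite directions from a shared stretch, printed here, and the 104 bases between the RefSeq starts hold no 2-unit match. The 3-unit matches of HSPD1 and HSP90AB1 lie in windows of other RefSeq starts, not printed here.
HSPD1 and HSPE1, chr2:197500275-197500378, plus strand: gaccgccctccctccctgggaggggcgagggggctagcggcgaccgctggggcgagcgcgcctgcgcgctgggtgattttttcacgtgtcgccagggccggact

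Libraries held 12934237 and 11760542 reads on the genes kept in 1035+Doxo, 13725592 and 12055472 in 1035, 18144670 and 12398192 in Doxo, and 16217438 and 15570301 in DMSO. The 9 precursor B-cell markers used were all counted, with a summed level of 2413 and 2429 CPM (counts scaled to the reads of each library, here without TMM) in 1035+Doxo, 2456 and 2461 in 1035, 3210 and 3461 in Doxo, and 3408 and 3301 in DMSO. Its members went both ways in 1035 over DMSO, 3 higher (CD79A, CD79B and CD22) and 6 lower by edgeR's test, with the largest falls for IGLL1 (-1.80 on the log2 scale) and DNTT (-0.88). Of 5 T and NK cell markers 1 was counted in every library, and of 4 erythroid markers 0 were. The summed level of the 4 of 5 myeloid markers counted was 32.9 and 34.4 CPM in 1035+Doxo, 32.6 and 39.0 in 1035, 20.3 and 23.7 in Doxo, and 22.5 and 22.5 in DMSO. In 1035 over DMSO 3 of these 4 were higher and LYZ was lower (-0.56 on the log2 scale). Among those higher, ITGAM had only 13 and 32 reads in 1035 against 16 and 9 in DMSO, and its groups overlapped in CPM. COL1A1, the 1 of 5 stromal markers counted, had 1.16 and 2.98 CPM in 1035+Doxo, 1.82 and 2.74 in 1035, 0.386 and 0.484 in Doxo, and 0.123 and 0.321 in DMSO, and was higher in 1035 over DMSO (3.24 on the log2 scale, edgeR adjusted p = 4.3e-06). That value rests on few reads, 25 and 33 in 1035 against 2 and 5 in DMSO. The nuclear RNA MALAT1 took 0.685% and 0.803% of reads in 1035+Doxo, 0.665% and 0.544% in 1035, 0.341% and 0.414% in Doxo, and 0.249% and 0.250% in DMSO. In the 4 libraries given 1035 the precursor B sum was lower, and the myeloid sum, COL1A1 and MALAT1 higher, than in all 4 others, and the part of these differences in the chaperone results was not tested.

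Per length, HSPA8 was the most abundant of the 10 transcripts in every library, and HSPA1A the least. In FPKM (fragments scaled by gene length and TMM-normalised library size), HSPA8 stood at 450 and 430.1 in 1035+Doxo, 437 and 475 in 1035, 638 and 577 in Doxo, and 628 and 624 in DMSO. HSP90AB1 ranked next (327 to 425 FPKM over all 8 libraries), then HSP90AA1 (112 to 195), HSPD1 (94.2 to 157), HSPH1 (46.9 to 78.0), HSPA5 (19.1 to 27.2), HSPE1 (17.4 to 26.4), DNAJB1 (16.2 to 19.8), HSPA1B (6.31 to 7.05) and HSPA1A (2.59 to 5.30). The order of group means was the same in all 4 groups. HSPA5 and HSPE1 overlapped in FPKM in 1035+Doxo and in DMSO, so those neighbours did not differ beyond their spread there. The 10 genes together took 0.463% and 0.462% of reads in 1035+Doxo, 0.450% and 0.477% in 1035, 0.629% and 0.601% in Doxo, and 0.616% and 0.611% in DMSO, with no overlap between the libraries given 1035 and those not given it.

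1035 alone was compared with DMSO to ask what the compound changes. Of the 10 chaperones, 8 fell, 1 rose (HSPA1A) and 1 did not pass the test (HSPA1B). In this comparison 49.0% of the 16320 genes tested passed, 24.8% lower and 24.2% higher, so a call in either direction was common. The median log2 fold change of the 10 was -0.41, against 0.009 for all genes tested. The CPM, from here on TMM-normalised, of the 2 groups did not overlap for any of the 10: 9 were lower in 1035, HSPA1B among them, and 1 was higher, whereas 36.7% of all genes were lower without overlap and 37.2% higher.

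The HSP70 genes of the cytosol did not share a direction. HSPA8, the constitutive cytosolic HSP70, had 2122 and 2308 CPM in 1035, against 3052 and 3031 CPM in DMSO. Both 1035 libraries lay below both DMSO libraries, and the log2 fold change was -0.46 ± 0.060 (SE; adjusted p = 3.2e-08, edgeR's quasi-likelihood test with Benjamini-Hochberg adjustment, as for all adjusted p-values of this and the following comparisons unless stated). HSPA1A, an inducible HSP70, had 10.5 and 12.9 CPM in 1035, against 6.82 and 7.94 CPM in DMSO. It was the 1 member that rose (log2 fold change 0.66 ± 0.147, edgeR adjusted p = 2.3e-04, 95% interval 0.365 to 0.958). HSPA1B, its near-identical neighbour on chromosome 6, had 16.0 and 15.9 CPM in 1035, against 16.1 and 16.8 CPM in DMSO. Its log2 difference of -0.042 had a 95% interval of -0.26 to 0.18, which leaves out a rise of the size seen for HSPA1A's point estimate. The reads of this pair are hard to separate, as described below, so this contrast depends on how shared reads were counted.

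HSPA5 and the HSP70 partner genes HSPH1 and DNAJB1 were lower. HSPA5 (BiP), the HSP70 of the endoplasmic reticulum, had 80.8 and 74.6 CPM in 1035, against 106 and 94.7 CPM in DMSO, a log2 fold change of -0.37 ± 0.070 (edgeR adjusted p = 3.2e-05). HSPH1, an exchange factor of the HSP110 family, had 205 and 208 CPM in 1035, against 320.1 and 304 CPM in DMSO. It fell by 0.59 on the log2 scale (SE 0.059, edgeR adjusted p = 4.0e-11). DNAJB1, the J-domain partner, had 59.7 and 62.9 CPM in 1035, against 72.7 and 68.5 CPM in DMSO. This was the smallest change among the called members, -0.20 ± 0.071 (edgeR adjusted p = 0.0162), and the call was lost with DESeq2 (adjusted p = 0.0648), with genes of mean normalised count of at least 50 only (0.0571), without DMSO replicate 1 (0.191) and without 1035 replicate 1 (0.133).

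Both cytosolic HSP90 genes fell, with the larger estimate for HSP90AA1. HSP90AA1 had 599.7 and 589 CPM in 1035, against 891 and 899.5 CPM in DMSO, a log2 fold change of -0.59 ± 0.060 (edgeR adjusted p = 8.6e-11). HSP90AB1 had 913 and 942 CPM in 1035, against 1191 and 1151 CPM in DMSO, a log2 fold change of -0.34 ± 0.058 (edgeR adjusted p = 5.1e-06). The ratio of HSP90AA1 to HSP90AB1 in FPKM was 0.331 and 0.389 in 1035+Doxo, 0.350 and 0.333 in 1035, 0.433 and 0.512 in Doxo, and 0.398 and 0.416 in DMSO, a description with no test. All 4 ratios in libraries given 1035 were below all 4 in the others.

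The mitochondrial pair fell together. HSPD1 (HSP60) had 401 and 429.8 CPM in 1035, against 663 and 667 CPM in DMSO, the largest change among the 10, with a log2 fold change of -0.68 ± 0.058 (edgeR adjusted p = 7.6e-13). HSPE1 (HSP10) had 35.9 and 34.4 CPM in 1035, against 52.3 and 47.9 CPM in DMSO, a log2 fold change of -0.51 ± 0.083 (edgeR adjusted p = 2.3e-06). HSPE1 shares 192 exonic bases with the same-strand gene HSPE1-MOB4 and 281 with HSPD1 on the other strand in GENCODE 29, so its count is uncertain where the counting could split them. HSPE1-MOB4 itself had 435 and 369 raw counts in 1035+Doxo, 441 and 441 in 1035, 711 and 459 in Doxo, and 631 and 635 in DMSO. These are not scaled to the unlike numbers of reads per library, so they do not give the size of its change.

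**Figure D1:**
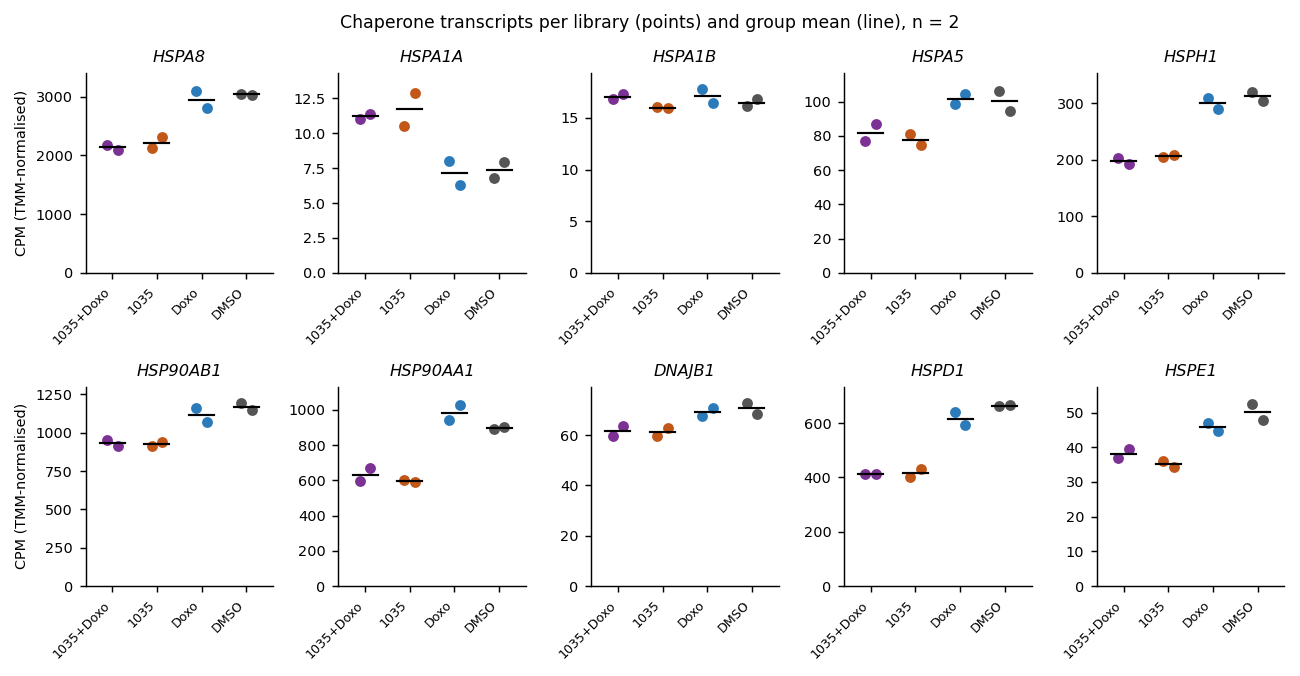
Points are the TMM-normalised CPM of each of 2 libraries per group for the 10 chaperone genes, and lines are group means, with each vertical axis starting at 0. For HSPD1 the 1035+Doxo libraries sat at 413 and 412 CPM and the 1035 libraries at 401 and 429.8, below the Doxo libraries at 639.6 and 593 and the DMSO libraries at 663 and 667, whereas HSPA1A was highest in the 4 libraries given 1035.

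HSPA1A and HSPA1B are hard to separate with short reads. Of the 2434 windows of 50 bases (the read length) along the HSPA1A transcript, 1766 (72.6%) also occurred in HSPA1B, and 668 did not. HSPA1A made up 39.5% and 39.8% of the summed counts of the pair in 1035+Doxo, 39.6% and 44.8% in 1035, 31.0% and 27.7% in Doxo, and 29.7% and 32.1% in DMSO. The 4 libraries given 1035 averaged 40.9 ± 2.59%, against 30.1 ± 1.91% in the 4 not given it (SD), a difference of 10.8 percentage points, with no overlap. These means set doxorubicin aside, were chosen after the values were seen and were not tested. Summed over both genes, the counts gave a log2 fold change of 0.21 ± 0.095 in 1035 over DMSO (edgeR adjusted p = 0.0588), so the call made for HSPA1A alone was not kept for the pair. HSPA1B also shares 920 exonic bases with the same-strand transcript AL671762.1.

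**Figure D2:**
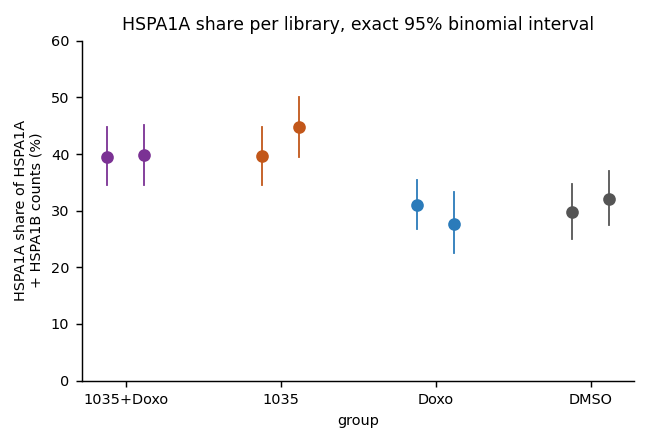
Points give the share of HSPA1A in the summed HSPA1A and HSPA1B counts of each library, in percent, and bars the exact 95% binomial interval, which covers counting error only. The libraries of 1035+Doxo (39.5% and 39.8%) and 1035 (39.6% and 44.8%) lie above those of Doxo (31.0% and 27.7%) and DMSO (29.7% and 32.1%).

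The combination was set against doxorubicin alone to ask what 1035 changes in cells that also get doxorubicin. These libraries are others than those of 1035 and DMSO. Of the 10 chaperones 7 fell, 1 rose and 2 did not pass the test, where 43.8% of all genes tested passed, 22.0% lower and 21.8% higher. In CPM 8 of the 10 were lower without overlap of the groups and 1 was higher, against 33.9% and 35.1% of all genes. The median log2 fold change was -0.29, against 0.004 for all genes. The 8 genes that passed had also passed in 1035 against DMSO, 7 lower and 1 higher in both, as did 3135 lower and 3023 higher of the 16320 genes tested.

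HSP90AA1 had the largest change here, with 593.5 and 668 CPM in 1035+Doxo, against 942 and 1026 CPM in Doxo. Its log2 fold change was -0.64 ± 0.060 (edgeR adjusted p = 1.3e-11). HSPH1 had 203 and 192 CPM in 1035+Doxo, against 309 and 289 CPM in Doxo (-0.60 ± 0.059, edgeR adjusted p = 4.5e-11). HSPD1 had 413 and 412 CPM in 1035+Doxo, against 639.6 and 593 CPM in Doxo (-0.58 ± 0.058, edgeR adjusted p = 6.0e-11). These 3, together with HSPA8, had no overlap between the groups and log2 changes at or beyond -0.46. HSPA8 had 2186 and 2088 CPM in 1035+Doxo, against 3100 and 2804 CPM in Doxo (-0.47 ± 0.060, edgeR adjusted p = 2.5e-08).

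The other HSP90 and the endoplasmic reticulum member changed less. HSP90AB1 had 954 and 914 CPM in 1035+Doxo, against 1160 and 1068 CPM in Doxo (-0.25 ± 0.058, edgeR adjusted p = 3.5e-04). HSPA5 had 76.9 and 86.7 CPM in 1035+Doxo, against 98.3 and 104.5 CPM in Doxo (-0.31 ± 0.071, edgeR adjusted p = 4.2e-04), and the call was lost without 1035+Doxo replicate 1 (-0.22, adjusted p = 0.0552). HSPE1, the lid of the mitochondrial chamber, had 36.8 and 39.5 CPM in 1035+Doxo, against 47.1 and 44.7 CPM in Doxo (-0.27 ± 0.084, edgeR adjusted p = 0.00758). Its call was lost without Doxo replicate 1 (adjusted p = 0.0639) and without 1035+Doxo replicate 1 (adjusted p = 0.109).

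HSPA1A was again the 1 member that rose, with 11.02 and 11.4 CPM in 1035+Doxo, against 8.004 and 6.30 CPM in Doxo (0.62 ± 0.150, edgeR adjusted p = 6.8e-04). Summed with HSPA1B, the pair gave 0.21 (edgeR adjusted p = 0.0719). HSPA1B had 16.9 and 17.3 CPM in 1035+Doxo, against 17.8 and 16.5 CPM in Doxo, and its groups overlapped (-0.013, 95% interval -0.23 to 0.21). DNAJB1 had 59.5 and 63.8 CPM in 1035+Doxo, against 67.5 and 70.7 CPM in Doxo, lower without overlap but not past the threshold (-0.16 ± 0.072, edgeR adjusted p = 0.0641).

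The combination was also set against DMSO. It shares its libraries with the comparison against Doxo and its controls with that of 1035, so it is no separate evidence. Of the 10 chaperones 8 fell and 1 rose, where 49.2% of all genes tested passed, 24.7% lower and 24.5% higher. In CPM 8 were lower without overlap and 2 higher (HSPA1A and HSPA1B), against 36.9% and 38.3% of all genes. HSPD1 again had the largest fall, with 413 and 412 CPM in 1035+Doxo, against 663 and 667 CPM in DMSO (-0.69 ± 0.058, edgeR adjusted p = 4.3e-13), and HSPA1A rose by 0.60 ± 0.149 on the log2 scale (edgeR adjusted p = 7.7e-04), or, summed with HSPA1B, by 0.25 (edgeR adjusted p = 0.0297). HSPA1B did not pass (0.052, 95% interval -0.17 to 0.27). The HSPA5 call (-0.30, adjusted p = 4.9e-04) was lost without DMSO replicate 1 (adjusted p = 0.0587) and without 1035+Doxo replicate 1 (0.0596). The DNAJB1 call (-0.20, adjusted p = 0.021) was lost with DESeq2 (0.0676), with genes of mean normalised count of at least 50 only (0.0604), without DMSO replicate 1 (0.219) and without 1035+Doxo replicate 1 (0.214).

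**Figure D3:**
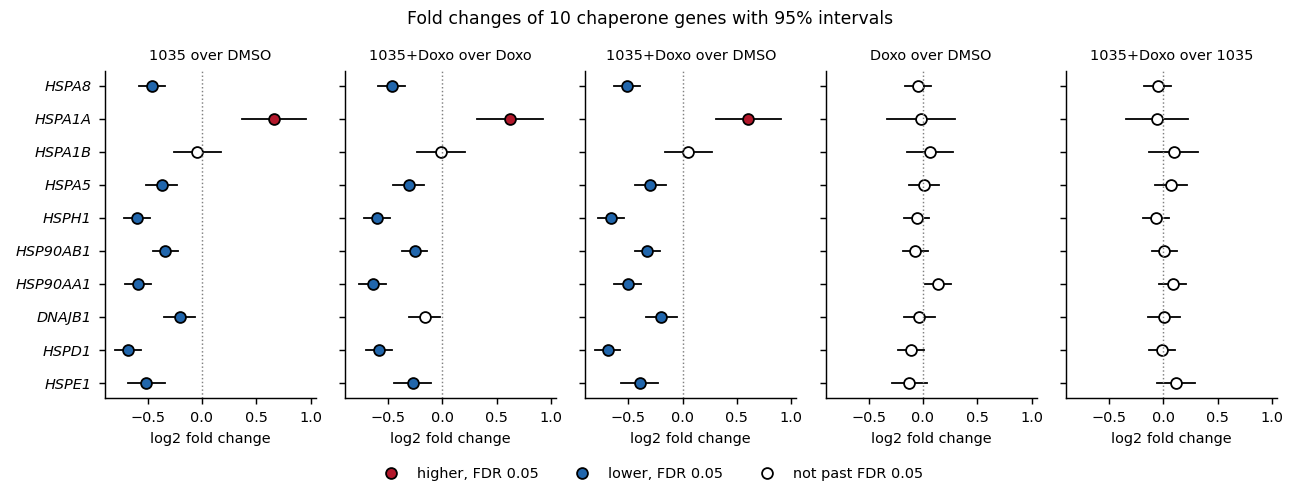
Points are log2 fold changes of the 10 chaperone genes in 5 comparisons, bars are 95% intervals, and filled points passed an FDR of 0.05 over all genes tested. In the 3 panels that set a group given 1035 against one without it, 7 or 8 genes were lower and HSPA1A was higher, and in the panels of Doxo over DMSO and of 1035+Doxo over 1035 the values ran from -0.12 to 0.14 and from -0.064 to 0.12 with no gene past the threshold.

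Doxorubicin alone changed 0 of the 10 chaperones past the threshold by edgeR's quasi-likelihood test and 0 by DESeq2, with 1 at an unadjusted p under 0.05. This dose changed 1.33% of all genes tested, 0.784% higher and 0.545% lower. HSP90AA1, the exception, had 942 and 1026 CPM in Doxo, against 891 and 899.5 CPM in DMSO. Both Doxo libraries were above both DMSO libraries, and the log2 difference was 0.14 (95% interval 0.016 to 0.26, edgeR adjusted p = 0.304). Without Doxo replicate 1 it passed (0.20, adjusted p = 0.0396). HSPD1 had 639.6 and 593 CPM in Doxo, against 663 and 667 CPM in DMSO (-0.11, 95% interval -0.23 to 0.006). HSPA1A had 8.004 and 6.30 CPM in Doxo, against 6.82 and 7.94 CPM in DMSO, with groups that overlapped and a 95% interval of -0.34 to 0.295. The median log2 difference of the 10 was -0.038, against -0.006 for all genes tested. These intervals hold small changes but not the log2 fold changes that HSPD1, HSPA8 and HSPH1 had in 1035 over DMSO. Of the 10, 1 was higher without overlap of the groups and 2 were lower, where 20.7% of all genes were higher without overlap and 24.0% lower.

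The comparison of 1035+Doxo with 1035 set 36 h of 1035 and next 10 h of doxorubicin against 46 h of 1035. Of the 10 chaperones 0 passed by edgeR's quasi-likelihood test, 0 by DESeq2 and 0 at an unadjusted p under 0.05. Of all genes 0.496% passed, 0.349% higher and 0.147% lower. Without overlap of the groups 2 were higher and 1 lower, against 17.5% and 17.8% of all genes. The log2 differences of 1035+Doxo over 1035 ran from -0.064 (HSPH1) to 0.12 (HSPE1). HSPE1 had 36.8 and 39.5 CPM in 1035+Doxo, against 35.9 and 34.4 CPM in 1035, and its 95% interval was -0.060 to 0.29. HSPH1 had 203 and 192 CPM in 1035+Doxo, against 205 and 208 CPM in 1035, and its 95% interval was -0.19 to 0.057.

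The interaction asked whether the effect of 1035 differed between cells given doxorubicin and cells not given it. The labelled time of 1035 differed as well, 36 h with doxorubicin and 46 h without, and these cannot be told apart. By edgeR's quasi-likelihood test 0 of the 10 passed, 0 passed by DESeq2 and 1 had an unadjusted p under 0.05, where 0.0184% of all genes passed. That gene was HSPE1, at 0.24 ± 0.118 on the log2 scale (edgeR adjusted p = 0.952, 95% interval 0.001 to 0.48), so its fall with 1035 was smaller in the presence of doxorubicin only at the unadjusted level. For the other 9 the interaction ran from -0.051 (HSP90AA1) to 0.099 (HSPD1). The interval for HSPA1A, -0.46 to 0.39, was the widest, as this gene had the fewest reads, 78 to 159 per library.

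The transcription factors of the heat shock response are known to act through changes of the protein more than of its RNA. HSF1 had 142 and 139 CPM in 1035+Doxo, 137 and 151 in 1035, 143 and 136 in Doxo, and 143 and 141 in DMSO. Its log2 difference in 1035 over DMSO was 0.023 (edgeR adjusted p = 0.784), and that of HSF2, a related factor, was -0.10 (edgeR adjusted p = 0.374). HSF4 rose (0.58 ± 0.154, edgeR adjusted p = 0.00174), although not without DMSO replicate 2 (0.37, adjusted p = 0.0986), and HSBP1, a small protein that binds HSF1, fell (-0.25 ± 0.069, edgeR adjusted p = 0.00225), although not without 1035 replicate 1 (adjusted p = 0.0592).

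The other genes of the chaperone network were followed in lists of partners and related families, some genes being in more than 1 list. Counting each gene once, 97 of 112 were tested, and in 1035 over DMSO 14 rose, 49 fell and 34 did not pass, where 24.2% of all genes tested rose and 24.8% fell, with a median log2 fold change of -0.18 against 0.009 for all genes tested. In 1035+Doxo over Doxo 14 of 97 rose and 42 fell (median -0.10), against 21.8% and 22.0% of all genes, and in 1035+Doxo over DMSO 14 rose and 48 fell, against 24.5% and 24.7%. By DESeq2 12 rose and 43 fell in 1035 over DMSO. In Doxo over DMSO, where 0.545% of all genes fell and 0.784% rose, 3 of 97 fell and 0 rose (31 of 97 at an unadjusted p under 0.05, and 2 lower and 0 higher by DESeq2): PDIA6 (-0.30 ± 0.056, edgeR adjusted p = 0.00193), HSPA13 (-0.29, edgeR adjusted p = 0.0337) and HSP90B1 (-0.22, edgeR adjusted p = 0.0337). Without DMSO replicate 1, which leaves 1 DMSO library, the calls were lost, with estimates of -0.27 for PDIA6, -0.29 for HSPA13 and -0.20 for HSP90B1. The calls of HSPA13 and HSP90B1 were also lost without DMSO replicate 2 (-0.28 and -0.24) and without Doxo replicate 2 (-0.21 and -0.17). HSPA13 did not pass with DESeq2 (DESeq2 adjusted p = 0.0687) or with only the groups compared (edgeR adjusted p = 0.0507). HSP90B1 did not pass with only the groups compared (edgeR adjusted p = 0.061) or without either 1035+Doxo library. In 1035+Doxo over 1035 and in the interaction 0 passed by either tool (unadjusted p under 0.05 in 6 and 4 of 97), where 0.496% and 0.0184% of all genes passed.

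Among the partners of HSP70, 5 of 26 J-domain proteins tested were higher and 9 lower in 1035 over DMSO, where 24.2% of all genes tested were higher and 24.8% lower. DNAJC18 (1.31 ± 0.164, edgeR adjusted p = 1.3e-08) and DNAJB2 (0.61 ± 0.107, edgeR adjusted p = 7.0e-06) rose. DNAJA1, a cytosolic J-domain partner of HSP70, had 236 and 235 CPM in 1035+Doxo, 228 and 234 in 1035, 392 and 364 in Doxo, and 391 and 392 in DMSO. It fell by 0.76 on the log2 scale in 1035 over DMSO (edgeR adjusted p = 2.8e-14). Of 11 HSP70 cofactors tested 6 fell and 1 rose, against the same shares of all genes. The 1 that rose, SIL1 (0.29 ± 0.119, edgeR adjusted p = 0.041), did not pass with DESeq2 (DESeq2 adjusted p = 0.204). BAG2, which inhibits the HSP70-associated ubiquitin ligase CHIP, had 32.6 and 28.4 CPM in 1035+Doxo, 29 and 29.8 in 1035, 60.9 and 50.6 in Doxo, and 60.4 and 59.5 in DMSO (1035 over DMSO -1.03 ± 0.089, edgeR adjusted p = 2.0e-12). HSPA9, the mitochondrial HSP70, fell by 0.37 on the log2 scale (edgeR adjusted p = 1.0e-06), and its nucleotide exchange factor GRPEL1 fell by 0.40 (edgeR adjusted p = 7.9e-05).

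Of the HSP90 cochaperones 4 of 16 tested were higher in 1035 over DMSO, a share near the 24.2% of all genes tested, and 8 were lower, where 24.8% of all genes were. CDC37, which brings kinases to HSP90, had 322 and 318 CPM in 1035+Doxo, 323 and 341 in 1035, 187 and 201 in Doxo, and 192 and 188 in DMSO. It rose by 0.80 ± 0.058 on the log2 scale in 1035 over DMSO (edgeR adjusted p = 9.5e-15), whereas both HSP90 genes fell. AHSA1, the activator of the HSP90 ATPase, fell by 0.545 (edgeR adjusted p = 7.0e-10). FKBP4, an immunophilin cochaperone, was outside the rule for named genes and was picked after its values were seen: it had 14 and 25 counts in 1035, against 4 and 7 in DMSO, and the fitted log2 fold change of 2.04 ± 0.539 (edgeR adjusted p = 0.00163) rests on those few reads. Of the small heat shock proteins 1 of 7 was counted in every library: HSPB1 had 242 and 253 CPM in 1035+Doxo, 240.0 and 268 in 1035, 170 and 181 in Doxo, and 195 and 184 in DMSO (1035 over DMSO 0.42 ± 0.061, edgeR adjusted p = 2.9e-07).

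In 1035 over DMSO, where 24.8% of all genes tested fell and 24.2% rose, TRiC and prefoldin, which fold actin and tubulin, had 9 of 14 tested lower and 1 higher, VBP1 having the smallest p among those lower (-0.87 ± 0.068, edgeR adjusted p = 7.9e-14). The 1 TRiC and prefoldin gene that was higher, PFDN6 (0.23 ± 0.087, edgeR adjusted p = 0.0268), did not pass with DESeq2 (DESeq2 adjusted p = 0.125). Of 15 endoplasmic reticulum folding genes 11 fell and 1 rose. PDIA6, a disulfide isomerase, had 379 and 376 CPM in 1035+Doxo, 419 and 433 in 1035, 593 and 550.5 in Doxo, and 717 and 691 in DMSO (1035 over DMSO -0.72 ± 0.057, edgeR adjusted p = 9.4e-14). CRELD2, known as a gene of the unfolded protein response, rose (0.48 ± 0.076, edgeR adjusted p = 1.1e-06), against the fall of HSPA5. Of the 10 mitochondrial folding and proteolysis genes 7 fell and 0 rose.

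**Figure D4:**
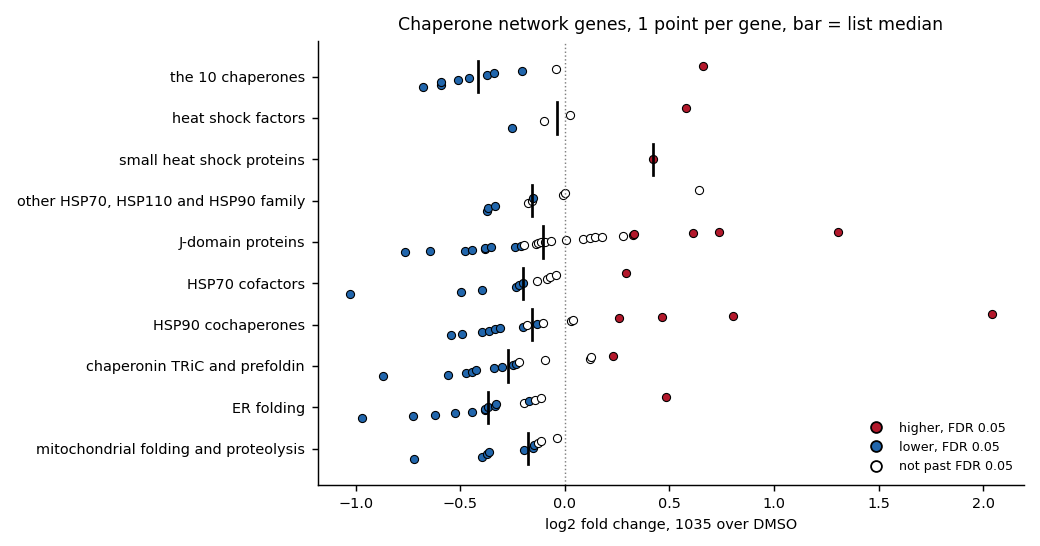
Each point is the log2 fold change of 1 gene in 1035 over DMSO, grouped by list, with the median of each list as a bar and filled points past an FDR of 0.05. The 10 chaperones had a median of -0.41 and the endoplasmic reticulum folding genes of -0.365, and the isolated point at 2.04 among the HSP90 cochaperones is FKBP4, which had 14 and 25 counts in 1035 and 4 and 7 in DMSO.

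Over the 8 libraries the genes most like HSPA1A in log2 CPM were RHOQ (Pearson's r = 0.985), MFSD12 (0.983) and NKIRAS1 (0.982), those most like HSPA5 were KLHL14 (0.992), DEPDC5 (0.984) and TMEM44 (0.984), and those most like HSP90AB1 were PSMB6 (0.998), FBXO4 (0.997) and ADPGK (0.995), out of 12073 genes searched. Among the 10 members HSPA8 and HSPD1 had r = 0.991, HSPA1A and HSPA5 r = -0.949, and HSPA1A and HSP90AA1 r = -0.937. With the other members HSPA1B had r from -0.097 (HSPA1A) to 0.309 (HSP90AA1). The points share 4 treatments and their libraries, so the strong correlations describe a shared difference between groups.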

How the data were processed

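Total RNA-seq of 8 SupB15 libraries was analysed. Per the labels, RNA was depleted of ribosomal RNA with a stranded kit and read as single reads of 50 bases. Per the submitters' processing notes, Novoalign 2.08.01, DESeq2 1.4.5 and hg19 were used; how reads were counted, with which annotation and strand setting, was not given in the sources used here. The deposited counts are raw reads per gene, per the file headers. The deposited FPKM values were scaled by the authors by length and library. The authors' deposited log2 fold changes and their p-value columns were used for no result.

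Tables were joined by identifier: 1241 of 17849 genes, absent from at least 1 table, were left out (0.0247% to 1.02% of reads). edgeR 4.0.16 (R 4.3.3) fitted 4 group means to all 8 libraries, with TMM, filterByExpr (288 genes removed) and a robust quasi-likelihood F-test, two-sided, at a Benjamini-Hochberg FDR of 0.05. FPKM were computed as normalised CPM over the length recovered from the deposited values. DESeq2 1.42.0, other scaling and filters, a replicate block and leaving out each library were alternatives. On simulated counts 200 of 16320 genes, each with a mean expected count of at least 50, were changed. For 1035 against DMSO 87% of 1.5-fold and 98% of 2-fold changes were recovered, with 8 false of 193 calls. For the interaction 68% and 94% were recovered, with 8 false of 170 calls. Smaller changes, and a larger share of changed genes, were not simulated.

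The members, gene lists and rules were chosen with earlier results of these data known. All 10 members are named. Per companion list, the 2 genes with the smallest p in each direction in 1035 against DMSO, 1 in other comparisons, HSF1 and HSF2 could be named. A further gene of the cell type markers is not reported here.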

Additional observations from a re-analysis of the deposited data

How the results depend on the processing

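Over the alternatives tried, the members' counts called higher and lower stayed within 1.5 times of the values given, with these exceptions. Without Doxo replicate 1 the count higher in Doxo over DMSO was 1 (0 to 1 over the libraries left out, against 0), the gene being HSP90AA1. With HSPA1A and HSPA1B summed, an alternative for these counts chosen after seeing the data, the count higher was 0 against 1 in 1035 over DMSO and in 1035+Doxo over Doxo. Of the members' single values 825 kept their direction and side of the threshold or had no call on either side, 15 lost the call and 2 gained it; the cause was not tested. Deviations of same-numbered libraries correlated at -0.078 to 0.080, so no shared deviation by replicate number was seen. This does not settle whether samples of the same number were handled together. With a replicate block the members called in 1035 over DMSO were 1 higher and 8 lower, in 1035+Doxo over Doxo 1 and 7, in 1035+Doxo over DMSO 1 and 8, and 0 in each direction elsewhere. Over all genes, Doxo over DMSO had 128 higher and 89 lower, 58 higher with DESeq2, 76 and 58 with only the groups compared, and over the libraries left out 28 (without DMSO replicate 1) to 634 (without Doxo replicate 1) higher and 5 to 546 lower, with the same libraries at the ends. 1035+Doxo over 1035 had 57 higher and 24 lower, 93 and 58 with only the groups compared, and over the libraries left out 29 (without 1035+Doxo replicate 2) to 87 (without either Doxo library) higher and 1 to 56 lower, with the same libraries at the ends. The interaction had 3 higher and 0 lower, 4 and 12 with the block, and over the libraries left out 1 (without DMSO replicate 2) to 64 (without Doxo replicate 1) higher and 0 to 175 (without Doxo replicate 1) lower. Depth limited HSPA1A most, at 78 to 159 reads per library.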
